A study of Mus musculus with 20 samples.

Results

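The proteasome genes of the mouse blastocyst were examined here as a group: every gene whose symbol on the array begins with Psma, Psmb, Psmc, Psmd, Psme, Psmf or Psmg, each represented by the probe set of highest mean over the 20 arrays. The rule found 49 genes with 103 probe sets, among 18194 genes that the platform names singly. 46 of the 49 were measured well enough to be tested. Psmc3ip, a meiotic recombination protein, and Psme3ip1, a protein that binds the Psme3 activator, matched by name only; the other 47 are subunits, activators, an inhibitor or assembly factors of the proteasome. Psme2 shares its probe set with the related gene Psme2b and was given no value.

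The samples were pools of 20 blastocysts of strain CF1, labelled female, in 5 groups of 4 pools. The question of the study was how each step of taking a cell from an 8-cell embryo, as done for preimplantation genetic diagnosis, touches gene expression later on. Embryos were left untreated, were incubated in calcium- and magnesium-free medium (CMF, which loosens contacts between cells), had the surrounding zona breached with acid Tyrode's solution (acid), received both exposures (CMF + acid), or received both and lost a single blastomere (biopsy). All pools were collected at 96 h after hCG, the hormone that triggers ovulation, and their RNA went through a linear amplification of 2 rounds before hybridization to the Affymetrix MOE430v2 array. Replicates are numbered 2 to 5 in the labels, which do not say whether pools came from separate collections, so p-values measure the spread between these pools.

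The proteasome takes apart proteins that carry ubiquitin. Its barrel-shaped 20S core is built of rings of α subunits (Psma genes) around rings of β subunits (Psmb genes), and 3 of the β subunits cut: Psmb6 with caspase-like, Psmb7 with trypsin-like and Psmb5 with chymotrypsin-like activity. The 19S regulatory particle caps the core; its Psmc ATPases unfold the substrate, and its Psmd subunits bind and remove ubiquitin. Psme1 and Psme2 (PA28α and β), Psme3 (PA28γ) and Psme4 (PA200) are alternative activators, Psmf1 (PI31) is an inhibitor of the core, and the Psmg chaperones build the core while Psmd5, Psmd9 and Psmd10 help to build the cap. Under interferon, Psmb9, Psmb10 and Psmb8 take the places of Psmb6, Psmb7 and Psmb5 to form the immunoproteasome, which cuts peptides for display on MHC class I. Preimplantation embryos use the proteasome to clear maternal proteins and to control the cell cycle.

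The arrays were alike, with 1 exception. Between 44.3% and 50.9% of probe sets were called Present by the array software. All 6 inner cell mass and all 6 trophectoderm markers, and 5 of 6 of primitive endoderm, were Present in all 4 untreated pools, while 1 of 6 cumulus and granulosa cell markers and 0 of 5 blood and immune markers were. The array of CMF + acid replicate 5 stood apart. Its mean correlation with the other arrays was 0.985 against at least 0.994 for the rest. Its actin 3′ to 5′ signal ratio, a sign of RNA length, was 4.22 against 1.51 to 3.06. The same ratio for Gapdh was 3.99, inside the range of the other arrays (3.08 to 4.30). Results that use this array are given with and without it where leaving it out moved a named value.

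The promoters of 4 members are printed, those of 2 constitutive cutting subunits and of their immunoproteasome counterparts. They are the 250 bases before the annotated start, from RefSeq on GRCm38.p6, read along the gene from 5′ to 3′. Capitals mark letters of an antioxidant response element (TGACNNNGC, the type that the proteasome regulator Nfe2l1 binds), a GAS-type element (TTCNNNGAA, of interferon signalling), a CCAAT box or a GC box (GGGCGG), on either strand. Psmb5 and Psmb6 are shown as constitutive cutting subunits whose windows hold an antioxidant response element, and Psmb9 and Psmb8 as their counterparts in the immunoproteasome.
Psmb5, chr14:54617996-54618245, minus strand: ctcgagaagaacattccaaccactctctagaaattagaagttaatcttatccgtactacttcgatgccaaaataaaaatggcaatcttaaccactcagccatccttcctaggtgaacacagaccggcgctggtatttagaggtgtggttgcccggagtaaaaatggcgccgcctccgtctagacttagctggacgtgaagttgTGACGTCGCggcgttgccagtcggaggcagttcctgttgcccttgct
Psmb6, chr11:70525107-70525356, plus strand: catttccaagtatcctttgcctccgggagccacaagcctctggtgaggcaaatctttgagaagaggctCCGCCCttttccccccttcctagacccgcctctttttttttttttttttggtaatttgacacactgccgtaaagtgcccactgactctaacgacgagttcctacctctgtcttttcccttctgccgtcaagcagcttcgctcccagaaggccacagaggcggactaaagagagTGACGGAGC
Psmb9, chr17:34187331-34187580, minus strand: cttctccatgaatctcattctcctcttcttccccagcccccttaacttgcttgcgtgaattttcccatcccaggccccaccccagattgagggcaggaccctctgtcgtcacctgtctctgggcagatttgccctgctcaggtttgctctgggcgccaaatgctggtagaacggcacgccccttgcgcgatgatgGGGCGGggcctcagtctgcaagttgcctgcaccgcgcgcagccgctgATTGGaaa
Psmb8, chr17:34197945-34198194, plus strand: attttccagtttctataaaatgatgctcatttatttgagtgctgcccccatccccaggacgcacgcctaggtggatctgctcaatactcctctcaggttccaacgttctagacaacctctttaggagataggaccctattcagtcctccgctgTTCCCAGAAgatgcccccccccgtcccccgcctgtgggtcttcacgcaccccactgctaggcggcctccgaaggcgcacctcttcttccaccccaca
In Psmb5 the element lies 47 to 39 bases before the start, and in Psmb6 it ends at the base before the start. Psmb6 also holds a GC box and Psmb9 a GC box and a CCAAT box. Psmb8 has a GAS-type match 97 to 89 bases before its start. Psmb9, Tap1, Psmb8 and Tap2 follow each other on chromosome 17 in the RefSeq annotation, and the printed window of Psmb9 reaches into Tap1, a peptide transporter gene of the same pathway.

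Promoters were on hand for 41 of the 49 members, all but Psmb1, Psmb2, Psmb7, Psma8, Psmc3, Psmd3, Psmd7 and Psmg2. The antioxidant response element was found in 5 of the 41 (12.2%, against 11.5% of all 27025 promoters of the table): in Psmb5, Psmb6, the ATPase Psmc6, the lid subunit Psmd12 and the assembly factor Psmd9. An ISRE-type element (GAAA, 2 bases of any kind, GAAA, of interferon response) was found in Psmb3, Psmd4 and Psmd9 (7.32% against 3.46%). The GAS-type element was found in Psmb8 and the assembly chaperone Psmg1 (4.88% against 8.13%). CCAAT boxes were found in 16 members (39.0% against 37.5%) and GC boxes in 22 (53.7% against 35.4%). These are matches of letters on both strands, and the motifs can overlap.

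The constitutive subunits of this group of genes were detected throughout. Intensities below are log2 values of the deposited GC-RMA measure, on which 1 unit is a 2-fold difference; they depend on the probes as well as on the transcript and rank no gene against another. Of the 49 members, 45 were called Present on all 20 arrays, where 66.6% of all 25553 tested probe sets were; the members' probe sets were picked for brightness, which favours detection. The 45 included all 7 standing α subunits, all 7 constitutive β subunits, all 6 ATPases and the 11 other 19S subunits named Psmd. Also among them were the activators Psme1, Psme3 and Psme4, the inhibitor Psmf1 and the 7 assembly factors of the group. The mean intensity was above 12 for 35 of the 46 tested members and for 13.1% of tested probe sets. The members' probe sets were picked by this same mean and the others were not, so no conclusion is drawn from these shares.

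The 3 cutting subunits were Present on every array. Psmb5 averaged 14.37 ± 0.09 (SD, n = 4) in untreated pools, 14.40 ± 0.15 under CMF, 14.37 ± 0.08 under acid, 14.31 ± 0.26 under CMF + acid and 14.33 ± 0.15 after biopsy. Psmb6 ranged from 14.20 to 14.51 over all 20 arrays, and Psmb7 from 13.22 to 14.08. The lowest Psmb7 value was in CMF + acid replicate 5, without which the range began at 13.63. The groups of these 3 genes overlapped in every comparison.

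The α subunits, which form the gate of the core, kept to narrow ranges apart from 1 array. Psma6 ran from 15.88 to 16.13 and Psma5 from 15.10 to 15.29 over all 20 arrays, the smallest GC-RMA spans of the 7. On the array software's signal Psma6 ran from 12.17 to 13.04 and Psma5 from 11.71 to 12.45, both highest in CMF + acid replicate 5. Psma4 averaged 14.03 ± 0.19 (SD, n = 4) in untreated pools, 14.05 ± 0.13 under CMF, 14.09 ± 0.15 under acid and 14.02 ± 0.09 after biopsy, and 13.70 ± 0.75 under CMF + acid, where replicate 5 was at 12.57. Psma1 spanned 1.11 log2 units over 20 arrays and 0.30 without that array, and Psma3 spanned 0.61 and 0.18. Of the β subunits that do not cut, Psmb4 spanned 0.22, and Psmb2 ran from 11.93 to 12.93. The low end of Psmb2 was untreated replicate 2, and its span was the same without CMF + acid replicate 5.

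Subunits of the cap differed in the same way. In GC-RMA values Psmc2 had the smallest pooled SD of all tested members, 0.04. It ran from 16.31 to 16.46 (12.41 to 13.28 on the array software's signal, highest in CMF + acid replicate 5). Psmc5, another ATPase of the same ring, ran from 12.41 to 13.91, and from 13.55 without CMF + acid replicate 5. Psmc6 spanned 1.09 and 0.58, its high end being biopsy replicate 2 at 15.63. Among the non-ATPase subunits the deubiquitinase Psmd14 spanned 0.32 log2 units and Psmd13, a lid subunit, 1.07; without that array these were 0.18 and 0.46. Psmd3 spanned 0.58 with or without it, between untreated replicate 4 and CMF + acid replicate 3.

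Of the immunoproteasome subunits, Psmb9 was detected and its partners were not. Psmb8 was called Present on 0 of 20 arrays, with values from 3.56 to 3.92. Psmb10 was also Present on 0 of 20, at 5.71 to 6.00 on 18 of the arrays, at 6.22 in biopsy replicate 3 and at 6.51 in CMF + acid replicate 3. Psmb9 was Present on all 20. Its untreated values were 8.08, 7.85, 7.65 and 7.98 (replicates 2 to 5), and its CMF values 7.77, 7.70, 7.60 and 7.60. Under acid they were 7.91, 7.40, 6.88 and 7.19. Under CMF + acid they were 8.11, 8.35, 7.60 and 6.43, and after biopsy 8.10, 7.45, 6.69 and 7.42. In these GC-RMA values the untreated and CMF pools lay close together. The acid, CMF + acid and biopsy pools spread from below to within or above the untreated range. The array software's signal ran from 6.11 to 6.44 in untreated pools, from 5.66 to 6.09 under CMF and from 5.71 to 6.16 under acid. It ran from 5.91 to 6.66 under CMF + acid and from 5.54 to 6.26 after biopsy. With all 20 arrays Psmb9 had a pooled SD of 0.51, where the median tested member had 0.16 and the median tested probe set 0.20. Without CMF + acid replicate 5 the pooled SD of Psmb9 was 0.38.

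**Figure D1:**
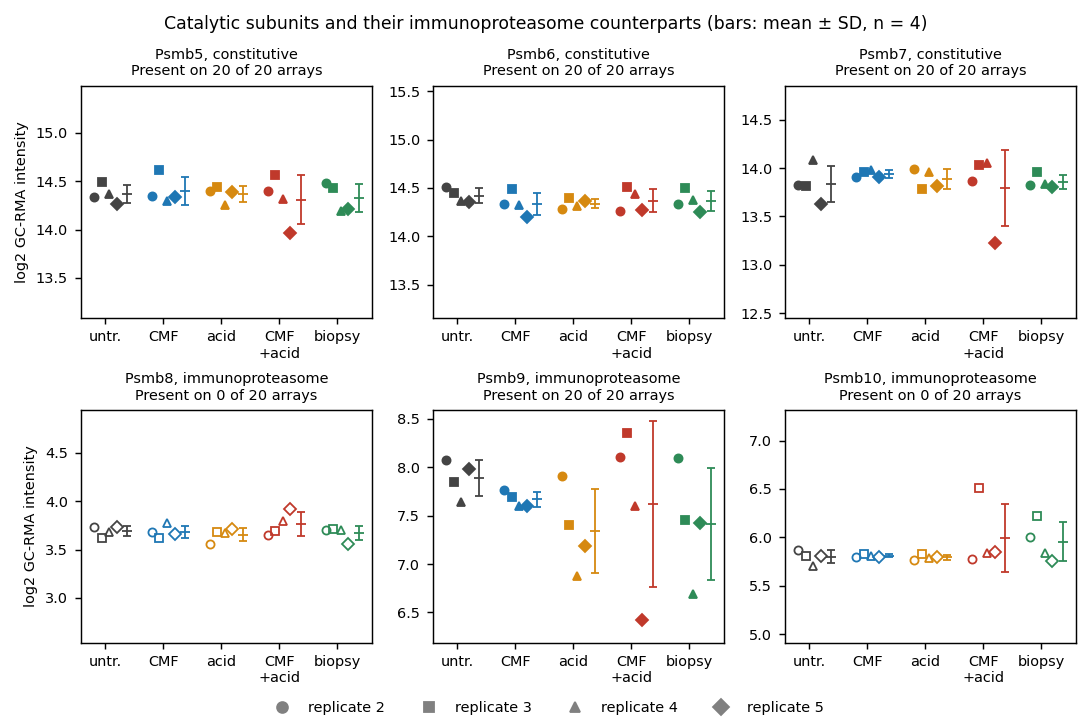
Log2 GC-RMA intensity of the cutting subunits Psmb5, Psmb6 and Psmb7 (top) and of Psmb8, Psmb9 and Psmb10 (bottom) on each array by group (untr., untreated), with marker shape for the replicate number, bars for mean ± SD (n = 4) and open markers where the gene was called Present on 0 of 20 arrays; each vertical axis spans the same number of log2 units. Psmb5 and Psmb6 stay within a narrow band, and Psmb9 runs from 6.43 to 8.35.

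Core subunits of restricted tissues were low. Psmb11, the thymus β subunit, was Present on 0 of 20 arrays, at 2.49 to 2.57. Psma8, the α subunit of male germ cells, was called Present on 19 arrays at a mean intensity of 2.84. Its untreated values were 2.77, 2.72, 2.76 and 2.73, and its biopsy values 3.98, 2.57, 2.78 and 2.96. The biopsy value of replicate 2 was the highest of the 20 arrays, and the other 3 lay from below to slightly above the untreated values.

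Among the activators, Psme1 varied from pool to pool and Psme4 hardly did. Psme1 was at 10.41, 10.64, 10.10 and 9.69 in untreated pools and at 10.36, 10.25, 10.17 and 9.60 after biopsy. Its lowest untreated value and its lowest biopsy value were in replicate 5 of each group, and the groups overlapped. Psme3 was at 12.06, 12.08, 12.05 and 11.94 in untreated pools and at 12.19, 12.17, 12.09 and 12.08 after biopsy. All 4 biopsy values of Psme3 lay above all 4 untreated values. Psme4, which had a pooled SD of 0.06, was at 13.84, 13.83, 13.79 and 13.80 in untreated pools, at 13.84, 13.63, 13.76 and 13.61 under CMF + acid, and at 13.82, 13.83, 13.85 and 13.94 after biopsy. The lowest 2 values of Psme4 among the 20 arrays were CMF + acid replicates 5 and 3. Psmf1 ranged from 9.84 to 10.38 over the 20 arrays.

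**Figure D2:**
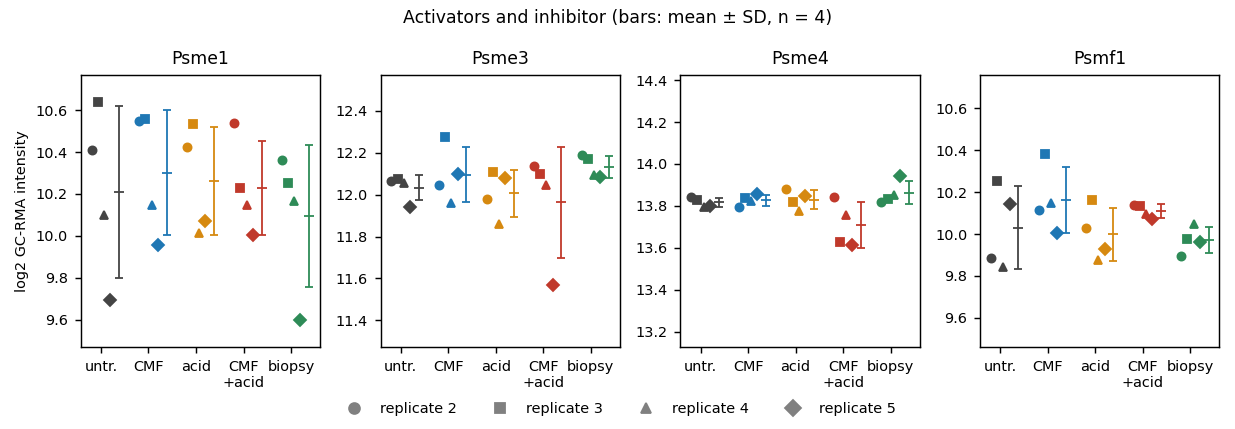
Log2 GC-RMA intensity of the activators Psme1, Psme3 and Psme4 and of the inhibitor Psmf1 on each array by group (untr., untreated), with marker shape for the replicate number and bars for mean ± SD (n = 4), on vertical axes of equal span. Psme1 is spread from 9.60 to 10.64, and Psme4 stays between 13.61 and 13.94.

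Of the assembly factors, Psmg4 and Psmd10 varied most between pools. The median pooled SD was 0.25 for the 4 core chaperones and 0.28 for the 3 cap factors, and reached 0.55 for Psmg4 and 0.40 for Psmd10. Without CMF + acid replicate 5 these 2 had 0.46 and 0.30, while Psmg2 had 0.09, Psmg1 0.12 and Psmd5 0.15. The median was 0.15 for the 14 constitutive core subunits and 0.16 for the 17 subunits of the regulatory particle. Psmg4 ran from 7.01 to 9.21 and Psmd10, also known as gankyrin, from 8.67 to 10.63. For both, the lowest array was CMF + acid replicate 5 and the highest CMF + acid replicate 3. Psmg2, the partner of Psmg1 in a chaperone of the α ring, lay between 12.95 and 13.23 on all arrays but CMF + acid replicate 5, where it was 12.06.

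**Figure D3:**
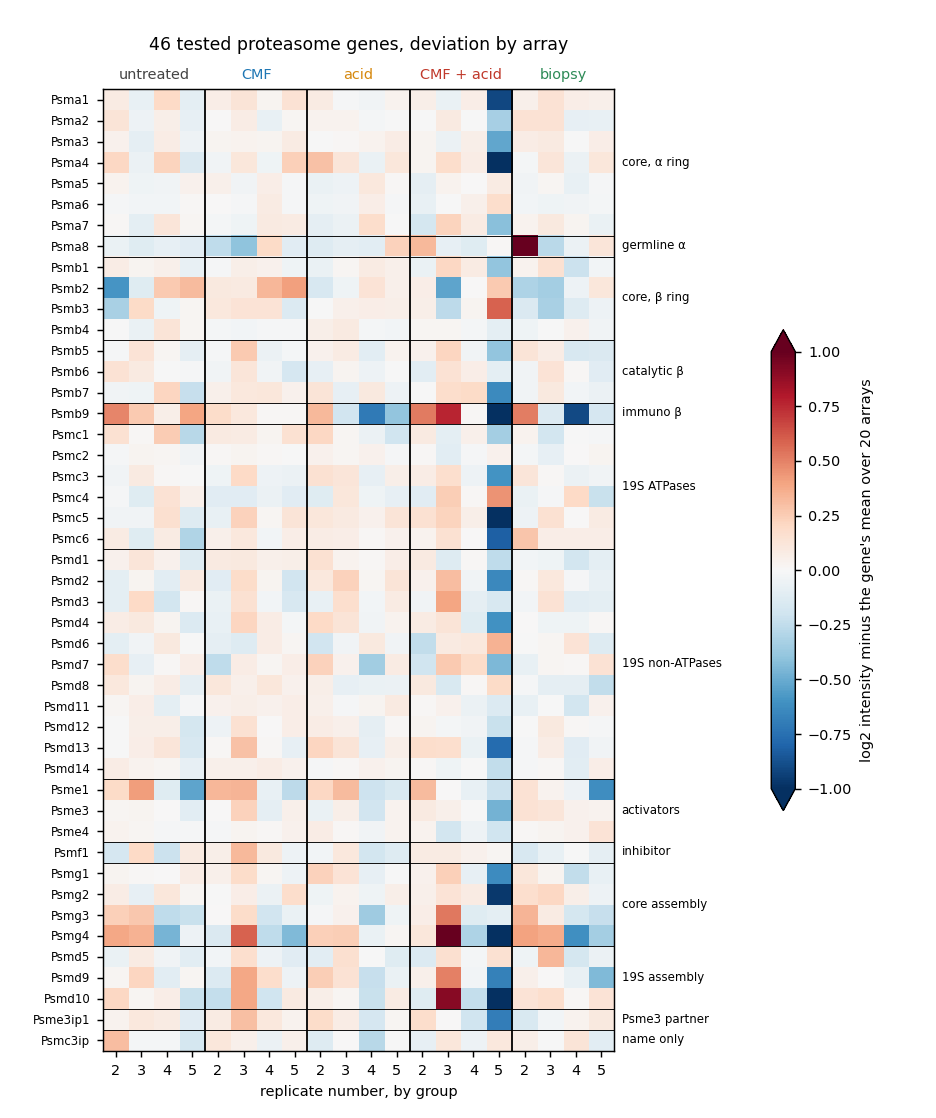
Heat map of the 46 tested members (rows, grouped by role) on the 20 arrays (columns, by group and replicate number); colour is the log2 intensity minus that gene's mean over the 20 arrays, limited to 1 unit either way. The column of CMF + acid replicate 5 is the lowest of the 20 for 29 genes. With all 20 arrays Psmg4, Psmb9 and Psmd10 have the largest pooled SDs of the tested members (0.55, 0.51 and 0.40). Without that array these genes have 0.46, 0.38 and 0.30, and Psma8 with 0.34 is above Psmd10.

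No proteasome member passed the test in any comparison. The fit was limma's moderated test across 25553 probe sets with Benjamini-Hochberg adjustment, called at an adjusted p under 0.05. In each of the 6 comparisons and in the F test over all groups 0 of 46 members were called, and the share of all tested probe sets called was 0% each time; an ordinary least squares fit also called 0. The lowest adjusted p of any member in limma's test was 0.617. The tests measured transcripts per unit of amplified RNA in whole blastocysts, so fewer cells of a type and less RNA per cell cannot be told apart. The number of arrays limits the precision: the median standard error of a group difference was 0.11 log2 units.

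After biopsy, 16 members were higher and 30 lower than in untreated pools, with a median difference of -0.02 against 0.01 for all tested probe sets. 0 of 46 reached an unadjusted p of 0.05, against 2.09% of tested probe sets. Of the constitutive core subunits 9 of 14 had lower means, and of the cap subunits 12 of 17, with a median of -0.02 for each. Psmd8, a subunit of the 19S lid, had the lowest unadjusted p. Its values were 13.24, 13.17, 13.21 and 13.05 in untreated pools and 13.13, 13.05, 13.05 and 12.89 after biopsy. All 4 biopsy pools were below the untreated mean, and each was below the untreated pool of its replicate number, but the groups overlapped. The difference was -0.14 ± 0.07 (SE; 95% interval -0.28 to 0.01; adjusted p = 0.99999 by limma). The fit with the replicate number as a block also called 0 members in this comparison, and the labels do not say what the number stands for.

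The next members by p in this comparison were the large scaffold subunit Psmd1 (-0.11 ± 0.07, SE, lower in 4 of 4 pools), Psma8 (0.33 ± 0.22, higher in 3 of 4), Psmb9 (-0.47 ± 0.34, lower in 3 of 4) and Psmc6 (0.18 ± 0.15, higher in 4 of 4). The positive value of Psma8 rests on biopsy replicate 2, without which it was 0.03. Psme3, the gene whose biopsy and untreated values did not overlap, differed by 0.10 ± 0.10; non-overlap in this direction was found for 1 of 46 members and for 1.74% of all tested probe sets. The fit without CMF + acid replicate 5, with a median standard error of 0.08, gave the same differences with unadjusted p of 0.0274 for Psmc6 and 0.0408 for Psmd8, and again called 0 members; 4.08% of tested probe sets then had an unadjusted p under 0.05.

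The intervals show what sizes the data allow. For 27 of the 31 constitutive core and cap subunits, the 95% interval of biopsy minus untreated lay inside 0.5 log2 units either way. The exceptions included Psma4, an α subunit, with an interval of -0.53 to 0.50, and Psmc5, an ATPase, with one of -0.42 to 0.53. Without CMF + acid replicate 5 the interval lay inside that limit for all 31. For Psmb9 it was wide, from -1.20 to 0.25.

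**Figure D4:**
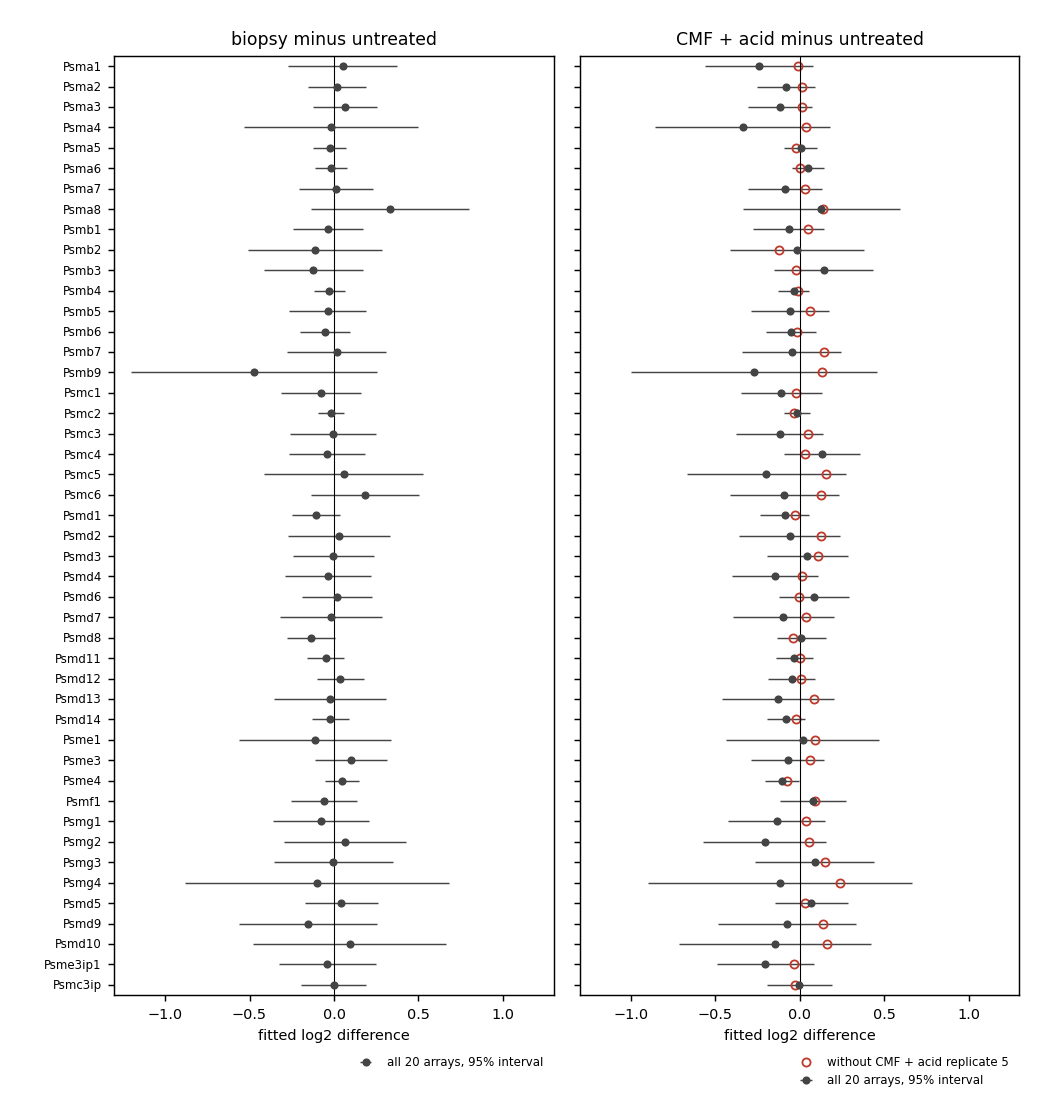
Fitted log2 difference from untreated for the 46 tested members after biopsy (left) and under CMF + acid (right), with 95% intervals from all 20 arrays (filled) and, on the right, the difference without CMF + acid replicate 5 (open). On the left Psma8 (0.33) and Psmb9 (-0.47) lie furthest from 0, and on the right the median moves from -0.07 to 0.03 without that array.

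Under CMF alone, 31 members were higher and 15 lower than untreated, with a median of 0.02 against 0.00 for all tested probe sets. 0 of 46 reached an unadjusted p of 0.05 (background 1.01%). The inhibitor Psmf1 led by p with 0.13 ± 0.09 (SE), higher in 3 of 4 pools; it was 0.00192 on the array software's signal and 0.03 with the mean of all its tested probe sets. Psmb2, a β subunit that does not cut, was 11.93, 12.41, 12.78 and 12.84 in untreated pools and 12.62, 12.61, 12.85 and 12.93 under CMF. The untreated pool of replicate 2 was the lowest of the 20 arrays, and the rest overlapped. Its difference was 0.26 ± 0.19. Psmb6 (-0.08 ± 0.07), the ATPase Psmc4 (-0.12 ± 0.11) and the lid subunit Psmd11 (0.06 ± 0.05) followed.

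Under acid alone, 26 members were higher and 20 lower, with a median of 0.01 against 0.00 for all tested probe sets, and 0 of 46 reached an unadjusted p of 0.05 (background 1.16%). Psmb9 led by p at -0.54 ± 0.34 (SE), with a 95% interval of -1.27 to 0.19 and lower values in 3 of 4 pools. It was the only member in the 5 comparisons of 2 groups whose fitted difference passed 0.5 log2 units with all 20 arrays, and its groups overlapped. Without CMF + acid replicate 5 the same difference had a standard error of 0.25 and an unadjusted p of 0.0489 (adjusted p = 0.99995 by limma; 1.8% of tested probe sets were under 0.05). The cap base subunit Psmd2 was 0.14 ± 0.14 higher, while Psmb6 (-0.08 ± 0.07) and Psmd8 (-0.07 ± 0.07) were lower; Psmc3ip, which is no subunit, was at -0.12 ± 0.09.

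Under CMF + acid, the balance of higher and lower members turned with 1 array. With all 4 pools, 12 members were higher and 34 lower, with a median of -0.07 against 0.01 for all tested probe sets. Without replicate 5, 31 were higher and 15 lower, with a median of 0.03. Psme4 was 1 of 46 with an unadjusted p under 0.05 (background 2.67%), at -0.11 ± 0.05 (SE; unadjusted p = 0.0389, adjusted p = 0.834 by limma), lower in 3 of 4 pools. Without replicate 5 it was at -0.07 ± 0.05, with an unadjusted p of 0.125.

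Other members that led this comparison rested on that array. Psma4 was at 14.19, 13.92, 14.20 and 13.83 in untreated pools and at 14.01, 14.16, 14.05 and 12.57 under CMF + acid. The first 3 treated pools lay inside the untreated range and replicate 5 far below it. The difference was -0.34 ± 0.24 with it and 0.04 ± 0.10 without it. Psma1, another α subunit, was at -0.24 ± 0.15 with it and at -0.01 without it. The deubiquitinase Psmd14 was at -0.08 ± 0.05 and at -0.02 without it, and Psme3ip1 at -0.20 ± 0.14 and -0.03.

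Blastomere removal itself is the difference between the biopsy and the CMF + acid pools. 28 members were higher and 18 lower after removal, with a median of 0.03 against -0.01 for all tested probe sets; without CMF + acid replicate 5, 15 were higher and 31 lower, with a median of -0.05. Of 46 members 2 had an unadjusted p under 0.05, against 7.36% of tested probe sets. Psme4 was 0.15 ± 0.05 higher (SE; 95% interval 0.05 to 0.25; unadjusted p = 0.00534, adjusted p = 0.617 by limma), and all 4 biopsy values lay above the mean of the CMF + acid pools. Without replicate 5 the difference was 0.12 ± 0.05, with an unadjusted p of 0.0189 and an adjusted p of 0.9999; Psmb9 was then at -0.60 ± 0.27 (unadjusted p = 0.0432), and 2.89% of tested probe sets were under 0.05. Psme4 has 5 further tested probe sets. With all 20 arrays, 3 of them had a positive difference (0.21, 0.42 and 0.05) and 2 a negative one (-0.25 and -0.17).

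Psmd8 was lower by this comparison as well, at -0.15 ± 0.07 (SE; unadjusted p = 0.0472, adjusted p = 0.617 by limma); without replicate 5 it was at -0.09 ± 0.07. Both comparisons of Psmd8 share the biopsy pools. Psma3 (0.18 ± 0.09), Psmb3 (-0.27 ± 0.14) and Psma1 (0.29 ± 0.15) followed; without replicate 5 they were at 0.05 ± 0.04, -0.10 ± 0.11 and 0.06 ± 0.06. Psmf1 was the member whose groups did not overlap, with all 4 biopsy pools (9.89, 9.98, 10.05 and 9.96) below all 4 CMF + acid pools (10.14, 10.14, 10.10 and 10.07). Its difference was -0.14 ± 0.09, and non-overlap in that direction was found for 1 of 46 members and for 0.665% of tested probe sets.

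Whether CMF and acid together differed from the sum of each alone was tested by their interaction. 11 members had a positive and 35 a negative interaction, with a median of -0.10 against -0.01 for all tested probe sets, and 0 of 46 reached an unadjusted p of 0.05 (background 3.4%). Without CMF + acid replicate 5 the split was 20 and 26, with a median of -0.01. Psmd1 led with -0.19 ± 0.10 (SE), then Psmc4 with 0.30 ± 0.15, Psme4 with -0.13 ± 0.07, Psmd11 with -0.13 ± 0.07 and Psmd14 with -0.13 ± 0.07. Without replicate 5 these were -0.13 ± 0.08, 0.20 ± 0.13, -0.10 ± 0.06, -0.09 ± 0.07 and -0.07 ± 0.06. Psmb9 had an interaction of 0.50 with all arrays and of 0.90 ± 0.37 (SE) without replicate 5 (unadjusted p = 0.0298, adjusted p = 0.997 by limma; 2.08% of tested probe sets had an unadjusted p under 0.05 in that fit). In the F test over the groups, Psme4 was 1 of 46 under an unadjusted p of 0.05, at 0.0499 (background 1.81%; adjusted p = 0.974).

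Core and cap averages differed by 0.09 log2 units or less on every array. For each array, the deviation of each gene from its own mean over the 20 arrays was averaged over the 16 tested core members (the 14 constitutive subunits, Psma8 and Psmb9) and over the 17 cap members. The core average less the cap average was 0.02 ± 0.05 (SD, n = 4) in untreated pools, 0.01 ± 0.05 under CMF, -0.03 ± 0.04 under acid, 0.00 ± 0.03 under CMF + acid and 0.00 ± 0.07 after biopsy. It ran from -0.08 to 0.09 over single arrays, and the ranges of the 5 groups overlapped. The low end was biopsy replicate 4, where Psmb9 was at 6.69 against its mean of 7.59. The high end was biopsy replicate 2, where Psma8 was at 3.98 against its mean of 2.84 and Psmb9 at 8.10. In CMF + acid replicate 5 the core average was -0.33 and the cap average -0.32, so that their difference there was -0.01. On the other 19 arrays the core average lay between -0.10 and 0.09 and the cap average between -0.08 and 0.10.

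**Figure D5:**
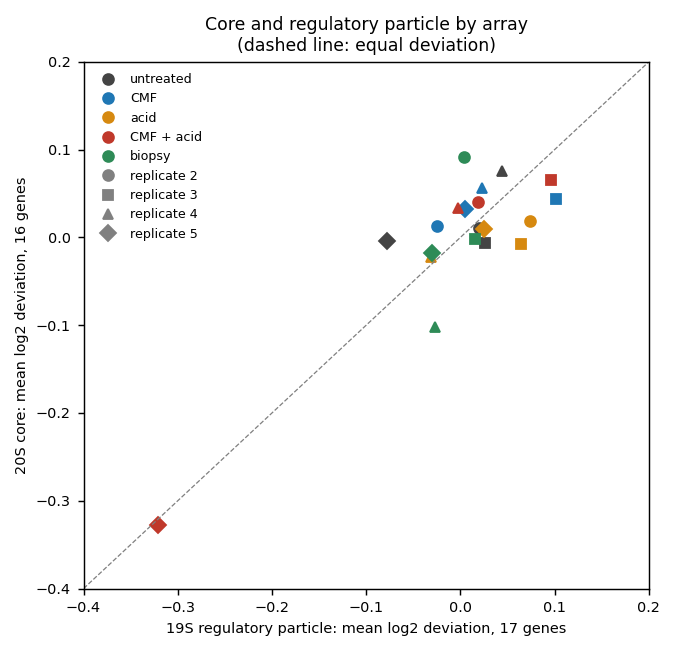
Mean log2 deviation of 16 core members (vertical) against that of 17 members of the 19S regulatory particle (horizontal) on each of the 20 arrays, coloured by group and shaped by replicate number; the dashed line marks equal deviation. 19 arrays lie between -0.10 and 0.10 on both axes, and CMF + acid replicate 5 lies near the line at -0.32 and -0.33.

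The transcripts of Psmb9 and Psmb6 were compared by their deviations. Psmb9 less Psmb6 was 0.25 ± 0.16 (SD, n = 4) in untreated pools, 0.11 ± 0.11 under CMF, -0.21 ± 0.45 under acid, 0.03 ± 0.80 under CMF + acid and -0.17 ± 0.60 after biopsy. Under CMF + acid without replicate 5 it was 0.40 ± 0.39 (SD, n = 3). In single pools it ran from 0.06 to 0.41 untreated and from -0.01 to 0.22 under CMF. The other ranges were wider and overlapped the untreated one: -0.66 to 0.41 under acid, -1.07 to 0.63 under CMF + acid and -0.91 to 0.55 after biopsy. The pairs of Psmb8 with Psmb5 and of Psmb10 with Psmb7 could not be compared, since Psmb8 and Psmb10 were called Present on 0 of 20 arrays, and no mean of the 3 pairs is given.

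The array of CMF + acid replicate 5 was the lowest of 20 for 29 of 46 members, against 26.2% of all tested probe sets and 44.4% of those with a mean above 12. It was the highest for 5 (Psma6, Psmd8, Psmd6, Psmc4 and Psmb3), against 26.2% and 22.3%. Its median difference from the other 19 arrays was -0.35 over the members. It was 0.02 over all tested probe sets and -0.13 over those with a mean above 12. The furthest below were Psma4 at -1.48, Psmc5 at -1.33, Psmb9 at -1.22, Psmg4 at -1.18 and Psmd10 at -1.10, and the furthest above were Psmb3 at 0.62 and Psmc4 at 0.47. Members of 1 ring differed in direction: among the α subunits 5 of 7 were at their lowest there and Psma6 at its highest. On the array software's own signal the members' median was -0.08, against 0.19 for all tested probe sets and 0.05 for those above 12. Psmb9 was then at -0.12, and Psma4 at -0.95. The part of RNA length in these values was not tested.

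2 other arrays held the highest value for several members. CMF + acid replicate 3 was highest of 20 for 11 of 46 (7.99% of tested probe sets), among them the assembly factors Psmg1, Psmg3, Psmg4, Psmd9 and Psmd10, the cap subunits Psmd2, Psmd3 and Psmd7, the core subunits Psma7 and Psmb1, and Psmb9. CMF replicate 3 was highest for 9 of 46 (5.15%), among them Psmb5, the ATPases Psmc3 and Psmc5, the ubiquitin receptor Psmd4, Psme3 and Psmf1. In CMF + acid replicate 3 the excess over the other arrays was 1.14 for Psmg4 and 0.96 for Psmd10. Among the 9 members highest in CMF replicate 3 it was at most 0.34, for Psmf1.

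Probe sets of the same gene often disagreed in direction. 24 members have several tested probe sets. In biopsy minus untreated, 14 of the 24 had at least 1 probe set with a sign opposite to the one used here, and in CMF + acid minus untreated 16 did; the other comparisons gave 13 to 16. The counts include dim probe sets with differences near 0, such as 1 of Psmc2. Its mean intensity was 2.70 and its biopsy minus untreated difference 0.01, against -0.02 with the probe set used. Psmc6 did not disagree in biopsy minus untreated, at 0.18 with the probe set used and 0.02 and 0.12 with its others.

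The genes around the proteasome also held no called gene. Of 12 proteasome-bound factors 10 were tested, of 11 genes of its transcriptional control 10, of 13 ubiquitin, E1 and shuttle genes 7, and of 15 genes of antigen processing and interferon response 7; 0 were called in any comparison by limma. In biopsy minus untreated, 10 of 10 proteasome-bound factors had positive differences, with a median of 0.08, and 7 of 7 ubiquitin-pathway genes did, with a median of 0.11; over all tested probe sets 58.5% were positive and the median was 0.01. Unadjusted p values under 0.05 were found for 0 of these 10 and 0 of these 7 genes, against 2.09% of tested probe sets. Zfand5, a zinc-finger protein that binds the proteasome, was at 0.11 ± 0.05 (SE). Among the control genes, 7 of 10 were positive with a median of 0.07, and 1 of 10 was under 0.05, against the same 2.09%. Maff, a small Maf protein that pairs with Nfe2l1, was at 0.46 ± 0.20 (unadjusted p = 0.0336, adjusted p = 0.99999 by limma).

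In the other comparisons 6 more values had an unadjusted p under 0.05. Among all tested probe sets the share was 1.16% under acid, 2.67% under CMF + acid and 7.36% in biopsy minus CMF + acid. Uba6 was 1 of 7 ubiquitin-pathway genes in each of its 2 comparisons. Sel1l was 1 of 10 control genes under acid, and Zfand5 1 of 10 proteasome-bound factors in biopsy minus CMF + acid. Uba6, an E1 enzyme that activates ubiquitin, was at -0.32 ± 0.13 (SE) in CMF + acid minus untreated and at 0.47 ± 0.13 in biopsy minus CMF + acid (unadjusted p = 0.0258 and 0.00246, adjusted p = 0.834 and 0.617 by limma). The 2 comparisons share the CMF + acid pools, and without replicate 5 the values were -0.14 ± 0.08 and 0.29 ± 0.08 (unadjusted p = 0.0971 and 0.00248, adjusted p = 0.9998 and 0.9999). Sel1l, a subunit of the ubiquitin ligase of the endoplasmic reticulum, was at 0.23 ± 0.08 under acid (unadjusted p = 0.0140, adjusted p = 0.99995 by limma). Zfand5 was at 0.12 ± 0.05 in biopsy minus CMF + acid (unadjusted p = 0.0384, adjusted p = 0.617), and at 0.10 ± 0.06 without replicate 5. In the interaction 2 of 10 proteasome-bound factors were under 0.05, against 3.4% of tested probe sets. They were the 19S subunit Sem1 (0.27 ± 0.12, unadjusted p = 0.0412) and Akirin2, which takes part in nuclear import of proteasomes (-0.20 ± 0.09, unadjusted p = 0.0498), both with an adjusted p of 0.779 by limma. Without replicate 5 they were at 0.31 ± 0.13 and -0.16 ± 0.09. The median over the 7 ubiquitin-pathway genes was -0.18 in CMF + acid minus untreated and 0.28 in biopsy minus CMF + acid, and without replicate 5 it was 0.08 and 0.02.

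The display pathway downstream of the immunoproteasome was detected in part. The MHC class I genes H2-K1 and H2-D1 and their light chain B2m were Present on all 20 arrays, as was the chaperone Tapbp. Tap1, the neighbour of Psmb9, was Present on 18 of 20 at a mean intensity of 4.63, and Tap2, the neighbour of Psmb8, on 0. The trimming peptidase Erap1, the interferon regulators Irf1, Irf2 and Irf7 and the interferon-induced gene Ifit1 were also Present on 0 of 20. In biopsy minus untreated 4 of 7 tested genes of this list were positive, with a median of 0.00.

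The replicate number was also tested, a choice made after the data were seen. An F test of the number in the same limma model called 3 of 46 members at an adjusted p under 0.05, against 4.13% of tested probe sets: Psme1 (adjusted p = 0.00713), the 19S lid subunit Psmd3 (0.0250) and the core chaperone Psmg3 (0.0264). Psme1 lay between 10.23 and 10.64 in all 10 pools numbered 2 or 3 and between 9.60 and 10.17 in all 10 numbered 4 or 5. Without CMF + acid replicate 5 the test called 7 of 46, adding Psmb5, Psmb9, Psmd5 and Psmg4, against 9.37% of tested probe sets. The labels do not say what the number stands for.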

How the data were processed

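Total RNA of pools of 20 blastocysts was amplified in 2 rounds and hybridized to Affymetrix MOE430v2 arrays, 4 pools in each of 5 groups. Per the series' design text, the authors quantified and normalized the arrays with GC-RMA in ArrayAssist Lite 3.4, filtered probe sets by Present calls in GeneSpring 7.31 and analysed them in Partek Genomics Suite 6.3. The deposited table holds the authors' GC-RMA intensity on a linear scale, and log2 was taken here. The authors' file of each array also gives the software's signal intensity and, per the file headers, a detection call with its p-value.

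The authors' minimum of 3 Present calls left 25553 probe sets for testing, without 64 control sets. One limma 3.58.1 fit (R 4.3.3) with 5 group means and empirical Bayes moderation served all comparisons, two-sided, with Benjamini-Hochberg adjustment over all probe sets, and was tested on simulated data. A difference is the first group minus the second on the log2 scale, and the interaction is CMF + acid minus CMF minus acid plus untreated. The pooled SD is the spread within the 5 groups. Groups came from the sample titles.

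Genes were named by the platform annotation. Of 45101 probe sets 34958 had 1 gene symbol, 932 several and 9211 were not listed, and 34754 were brought up to date by gene number in RefSeq. The members and the other gene lists were chosen with earlier results of these data known, so list counts stand beside those of all probe sets and no list was tested. By rule, values are given for the cutting subunits and their immunoproteasome counterparts, tissue-restricted subunits, activators, the inhibitor, assembly factors, the 5 members of lowest p in each comparison and up to 4 genes of each other list. Members named for their span, or for being highest or lowest on 1 array, were singled out after their values were seen. Alternatives covered the software signal, quantile normalization, the filter, the offset, weights, the replicate number as a block and leaving out each array. The added ones are the core without Psma8 and Psmb9, the test of the replicate number and the other lists without CMF + acid replicate 5.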

Additional observations from a re-analysis of the deposited data

Results flagged for a closer look

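Each of the 46 tested members was examined in each of the 5 groups for a pool far from the other 3, by Dixon's ratio of its gap to the group's range at the 95% limit for 4 arrays. 17 of 230 groups passed the limit, where chance alone passes about 1 in 20. All values are log2 intensities, and no explanation was tested.

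6 of the 17 were CMF + acid replicate 5, each below the other pools of its group: Psma1 at 14.05 (others 14.89 to 15.03), Psma4 at 12.57 (14.01 to 14.16), Psmc5 at 12.41 (13.73 to 13.90), Psmc6 at 14.54 (15.35 to 15.50), Psme3 at 11.57 (12.05 to 12.14) and Psmg2 at 12.06 (13.07 to 13.16). This is the array of lowest correlation with the rest.

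6 were CMF pools. Psmb5 at 14.61 and Psmc3 at 14.40 in replicate 3, Psmc4 at 15.26 in replicate 4 and Psma3 at 15.55 in replicate 5 were above their group. Psmb3 at 14.55 in replicate 5 and Psmd7 at 11.79 in replicate 2 were below it. 3 were biopsy pools above their group: Psma1 at 15.10 and Psmb7 at 13.96 in replicate 3 and Psmc6 at 15.63 in replicate 2, the last against 15.41 to 15.42 in the other pools. Psme3 at 11.94 in untreated replicate 5 was below its group, and Psma8 at 3.07 in acid replicate 5 above it.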

How the results depend on the processing

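No alternative called a member: 0 were called in all 69 alternatives of the 6 comparisons and the F test and in all 140 fits that left out an array, with a lowest adjusted p of 0.213. The median difference of the members in CMF + acid minus untreated was -0.07, ran from -0.11 to 0.03 when 1 array was left out, and was 0.0315 without CMF + acid replicate 5. Of 899 recomputed values of 30 single-member results, 5 changed sign. On the software signal these were Psmc4 in CMF minus untreated (0.0564), Psmd14 in CMF + acid minus untreated (0.00319), Psma3 in biopsy minus CMF + acid (-0.0667) and Psmd11 in the interaction (0.0383). Without CMF + acid replicate 5, Psma4 in CMF + acid minus untreated was 0.0383, the highest of its values with 1 array left out, of which the lowest was -0.489. The cause of the changes on the software signal was not tested. The replicate number as a block called 0 members in each comparison. Same-numbered pools of different groups had correlated deviations (r over 0.1) in 30 of 40 pairs, with r from -0.09 to 0.40 and a median of 0.20 against -0.07 for other pairs. Pairing was to be accepted if every pair passed 0.1, and 30 did. With 4 pools a group, differences below the intervals given cannot be told from the spread, and Psmb8, Psmb10 and Psmb11 were called Present on 0 of 20 arrays, so no change in them could be measured.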
